A study of Homo sapiens with 9 samples.

Results

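The annexins are a family of calcium-dependent phospholipid-binding proteins, and 8 of their genes are described here in THP-1 cells, a line from a human monocytic leukaemia. The genes are ANXA1, ANXA2, ANXA4, ANXA5, ANXA6, ANXA7, ANXA8 and ANXA11. They were taken from the deposited count table by gene symbol, with the first row of a symbol used, and gave 8 of its 30000 rows. RNA was sequenced in 9 libraries in 3 groups of 3. The first group is labelled PKM2_KD_Ecto and is read here as THP-1 cells given ectosomes of Huh7 hepatoma cells in which PKM2, an isoform of pyruvate kinase, had been knocked down by shRNA. The second, Scramble_Ecto, received ectosomes of Huh7 cells that carried a scramble shRNA, and the third, Ctrl, received no ectosomes. Ectosomes are shed by outward budding of the cell surface. How they were prepared, how much was given and for how long is not stated in the labels. No label tells whether the libraries of a group came from separate cultures, so that p-values measure only the spread between libraries, and this may be technical.

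Each annexin carries a conserved core of repeats that binds calcium and, through it, acidic phospholipids such as phosphatidylserine on the inner face of membranes. The members differ mainly in the tail before this core, through which several bind proteins of the S100 or penta-EF-hand families. Annexins are known for work in vesicle traffic, membrane repair, coagulation and the control of inflammation. In monocytes and macrophages, annexin A1 released from the cell acts on formyl peptide receptors, annexin A2 with S100A10 binds plasminogen at the cell surface, and annexin A5 covers exposed phosphatidylserine. Annexins are also common components of shed vesicles. In bulk RNA, fewer cells that make a transcript and less of it in every cell cannot be told apart.

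Libraries held 17744587 to 23864381 counts. The 8 annexins together took 0.136 to 0.138% of the counts with PKM2-knockdown ectosomes, 0.173 to 0.176% with scramble ectosomes and 0.119 to 0.125% in controls. Levels are given as TMM-scaled CPM, that is the count of a transcript over a library total scaled by the trimmed mean of M-values. Differences are log2 fold changes of edgeR's quasi-likelihood test fitted to all 9 libraries, and each adjusted p is from that test with Benjamini-Hochberg adjustment over the 18437 rows tested, the threshold being 0.05. PKM, the gene of the knocked-down enzyme, was under this reading targeted in the source cells and not in THP-1. In THP-1 it stood at 2313 ± 137 CPM with PKM2-knockdown ectosomes, 3500 ± 108 CPM with scramble ectosomes and 650 ± 195 CPM in controls (SD, n = 3 each), and its fall with PKM2-knockdown against scramble ectosomes (log2 -0.60, adjusted p = 0.0145) did not pass when libraries were scaled by their totals (adjusted p = 0.0752) or when PKM2-knockdown replicate 1 was left out (adjusted p = 0.0544). Control replicate 3 stood apart from the other two controls: 1364 and 1261 rows differed by at least 2-fold from replicates 1 and 2, against 35 to 69 rows in every other pair within a group. All 10 monocytic markers were detected in each group, with a summed level of 1740 to 1830 CPM with PKM2-knockdown ectosomes, 1220 to 1270 CPM with scramble ectosomes and 880 to 955 CPM in controls. PTPRC, SPI1 and CSF1R make up most of that sum in the ectosome groups. With PKM2-knockdown against scramble ectosomes 6 of the 10 markers were higher and 0 lower (31.4% and 30.3% of all rows). Against controls the markers did not move together. With PKM2-knockdown ectosomes 5 were higher and 3 lower (27.0% and 26.7%), and with scramble ectosomes 3 and 5 (34.6% and 33.2%). LYZ was among those lower with scramble ectosomes, at 17.6 ± 0.529 CPM, against 203 ± 120.4 CPM in controls (SD, n = 3 each). Whether these marker changes bear on the annexin differences was not tested.

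Scramble ectosomes were followed by large changes of opposite sign within the family. ANXA1, ANXA2, ANXA5 and ANXA7 rose and ANXA4, ANXA8 and ANXA11 fell against controls, so that 7 of 8 members passed the test, where 67.8% of all rows did (34.6% higher, 33.2% lower). With PKM2-knockdown ectosomes against controls, ANXA1, ANXA2, ANXA5 and ANXA6 rose and ANXA4, ANXA8 and ANXA11 fell, again 7 of 8 members beside 53.7% of all rows (27.0% higher, 26.7% lower). Between the ectosomes, ANXA4 and ANXA8 were higher and ANXA1, ANXA5 and ANXA7 lower with PKM2-knockdown than with scramble ectosomes, 5 of 8 members beside 61.6% of all rows (31.4% higher, 30.3% lower). Calls of at least 2-fold numbered 4 of 8 members for PKM2-knockdown against scramble ectosomes (28.8% of all rows), 5 of 8 for scramble ectosomes against controls (36.6%) and 4 of 8 for PKM2-knockdown ectosomes against controls (21.8%). Without control replicate 3 the count for PKM2-knockdown against scramble ectosomes was 7, as ANXA6 passed as higher and ANXA2 as lower, and scramble ectosomes against controls gave 8. In that fit 13617 and 13640 of 19053 rows passed in these comparisons, so that the share over all rows rose as well. The counts of members called are near the background in the comparison of the ectosomes, and the median size of the log2 difference, regardless of sign, was 0.98 over the members and 0.61 over all rows. For scramble ectosomes against controls that median size was 2.07 over the members and 0.74 over all rows. For PKM2-knockdown ectosomes against controls it was 0.83 over the members and 0.50 over all rows.

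**Figure D1:**
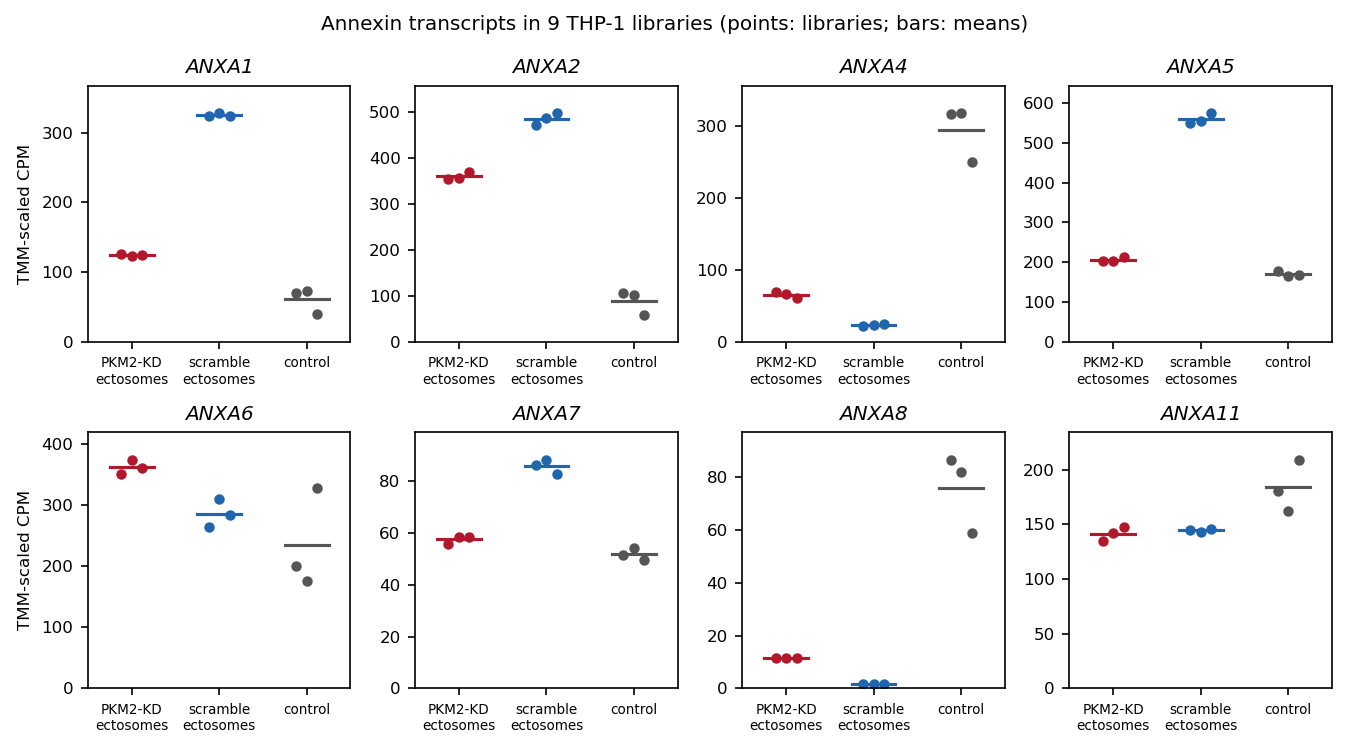
TMM-scaled CPM (vertical axes, each from 0) of the 8 annexin transcripts in the 9 libraries, with points for libraries and bars for means of PKM2-knockdown ectosome, scramble ectosome and control groups. ANXA1, ANXA2, ANXA5 and ANXA7 were highest with scramble ectosomes, and ANXA4 and ANXA8 were lowest there and highest in controls.

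The transcripts of ANXA1, ANXA2 and ANXA5, whose proteins act at the outer cell surface, had the 3 largest rises of the family with scramble ectosomes against controls. The 250 bases before the RefSeq start of each (GRCh38.p14, 5′ to 3′ on the strand of the gene) are printed for that reason. With PKM2-knockdown ectosomes against controls the rise of ANXA5 was small, at log2 0.28. ANXA4 fell against controls, and the window of its second start is printed because it held NF-kB letters. The windows of ANXA11, which also fell, and the ANXA6 window with NF-kB letters are not printed. The other start of ANXA4 held no AP-1 or NF-kB letters and is not printed. The printed windows lie at chr9:73151615-73151864 on the plus strand, chr15:60397987-60398236 on the minus strand, chr4:121696981-121697230 on the minus strand and chr2:69741884-69742133 on the plus strand, in the order printed. Capitals mark a match to the motif of AP-1 or of NF-kB.
ANXA1: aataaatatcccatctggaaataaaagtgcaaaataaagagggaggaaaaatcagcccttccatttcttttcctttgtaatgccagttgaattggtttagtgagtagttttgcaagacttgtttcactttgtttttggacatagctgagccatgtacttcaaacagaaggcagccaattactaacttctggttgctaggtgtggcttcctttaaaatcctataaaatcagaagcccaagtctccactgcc
ANXA2: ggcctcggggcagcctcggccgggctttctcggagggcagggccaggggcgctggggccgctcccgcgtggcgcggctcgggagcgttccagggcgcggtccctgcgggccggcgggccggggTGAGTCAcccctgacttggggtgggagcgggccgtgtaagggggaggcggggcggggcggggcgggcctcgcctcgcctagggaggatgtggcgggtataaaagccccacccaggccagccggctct
ANXA5: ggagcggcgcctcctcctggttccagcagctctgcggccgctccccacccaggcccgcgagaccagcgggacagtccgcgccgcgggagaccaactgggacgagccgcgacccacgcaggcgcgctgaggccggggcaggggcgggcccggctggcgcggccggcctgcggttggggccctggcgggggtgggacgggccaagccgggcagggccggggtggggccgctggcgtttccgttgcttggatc
ANXA4: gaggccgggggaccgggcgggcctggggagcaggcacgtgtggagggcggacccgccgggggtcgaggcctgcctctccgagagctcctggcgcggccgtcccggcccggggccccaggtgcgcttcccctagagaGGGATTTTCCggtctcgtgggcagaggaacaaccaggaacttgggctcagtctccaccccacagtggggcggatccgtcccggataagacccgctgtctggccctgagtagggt

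The RefSeq promoter set used here held 11 promoters for 7 of the 8 members and none for ANXA8, which is therefore not covered. Motifs were sought on both strands of these 250 bases: STAT (TTCNNNGAA), AP-1 (TGANTCA), the cAMP response element (TGACGTCA), C/EBP (TTGCNNCAA), PU.1 (GAGGAAGT), Sp1 (GGGCGG), the E-box (CACGTG) and NF-kB. The ANXA1 window is 38.4% G and C and held none of these letters. The ANXA2 window is 78.0% G and C, held the AP-1 letters, which 6.6% of 35116 RefSeq promoters of that length hold, and had 3 overlapping Sp1 matches. The ANXA5 window is 78.8% G and C and held 1 Sp1 match, a motif found in 42.6% of promoters. The ANXA4 window is 71.6% G and C and held NF-kB and E-box letters, present in 5.2% and 6.3% of promoters, and 3 Sp1 matches. Besides these windows, the other start of ANXA4 held 5 Sp1 matches. There were 3 at 1 start of ANXA11, 3 at the start of ANXA7 and 1 at 1 start of ANXA6. Whether any match bears on the changes was not tested. A match is a description of letters, not a site of binding. Among the other member promoters, NF-kB letters were found at 1 start of ANXA6 and E-box letters at its other start, and no STAT, cAMP response element, C/EBP or PU.1 letters were found in any of the 11.

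ANXA1 (chr9:73151757-73170393, plus strand, GENCODE 29 on GRCh38) encodes a protein that dampens neutrophil and monocyte recruitment through formyl peptide receptors. It had 125.5, 123.1 and 125 CPM with PKM2-knockdown ectosomes, 324.3, 327.8 and 324.6 CPM with scramble ectosomes and 69.84, 73.31 and 39.91 CPM in controls. All 3 groups lay apart, and control replicate 3 was the lowest library. The transcript was 5.33-fold higher with scramble ectosomes than in controls (log2 2.41 ± 0.18, SE, adjusted p = 8.46e-07). The level with PKM2-knockdown ectosomes was 2.61-fold lower than with scramble ectosomes (log2 -1.39 ± 0.18, adjusted p = 6.23e-05) and 2.04-fold higher than in controls (log2 1.03 ± 0.18, adjusted p = 0.000646).

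ANXA2 (chr15:60347134-60402883, minus strand) encodes the partner of S100A10 in a complex that binds plasminogen and its activator. Its transcript had 355.1, 357.1 and 369.7 CPM with PKM2-knockdown ectosomes, 471.9, 486.9 and 497.1 CPM with scramble ectosomes and 106.1, 101.8 and 58.13 CPM in controls. Against controls it was 5.47-fold higher with scramble ectosomes (log2 2.45 ± 0.19, adjusted p = 8.13e-07) and 4.06-fold higher with PKM2-knockdown ectosomes (log2 2.02 ± 0.18, adjusted p = 7.42e-06). The ectosome groups did not overlap, yet the difference between them, 1.35-fold, did not pass the test (log2 -0.43 ± 0.18, adjusted p = 0.0546). Without control replicate 3 it passed (adjusted p = 2.97e-07), as it did without control replicate 1 (adjusted p = 0.0386), in a fit of the ectosome groups alone (adjusted p = 4.78e-07) and with DESeq2 (adjusted p = 0.0324).

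ANXA5 (chr4:121667955-121697113, minus strand) encodes the annexin that binds exposed phosphatidylserine and is used to stain apoptotic cells. It had 203.5, 202.4 and 213.5 CPM with PKM2-knockdown ectosomes, 550.2, 555.8 and 574.1 CPM with scramble ectosomes and 178, 165 and 167.3 CPM in controls. The scramble libraries were far above the rest, and the PKM2-knockdown libraries lay just above the controls without overlap. With scramble ectosomes the transcript was 3.29-fold higher than in controls (log2 1.72 ± 0.07, adjusted p = 1.19e-08). With PKM2-knockdown ectosomes it was 2.71-fold lower than with scramble ectosomes (log2 -1.44 ± 0.07, adjusted p = 9.47e-08) and 1.21-fold higher than in controls (log2 0.28 ± 0.07, adjusted p = 0.00621).

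ANXA4 and ANXA8 had the reverse order of groups, with the highest level in controls and the lowest with scramble ectosomes. ANXA4 (chr2:69644425-69827100, plus strand) encodes an annexin best known from epithelia, where it binds secretory membranes. It had 69.54, 66.02 and 61.4 CPM with PKM2-knockdown ectosomes, 22.02, 23.64 and 24.78 CPM with scramble ectosomes and 316.7, 317.9 and 249.6 CPM in controls. The groups lay far apart from each other. The transcript was 12.6-fold lower with scramble ectosomes than in controls (log2 -3.65 ± 0.12, adjusted p = 2.32e-09). With PKM2-knockdown ectosomes it was 2.80-fold higher than with scramble ectosomes (log2 1.48 ± 0.11, adjusted p = 1.17e-06) and 4.49-fold lower than in controls (log2 -2.17 ± 0.11, adjusted p = 1.23e-07).

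ANXA8 (chr10:47460162-47484158, minus strand) encodes an annexin that was first described as an anticoagulant protein and is highly expressed in acute promyelocytic leukaemia. It had 237, 244 and 216 reads with PKM2-knockdown ectosomes, 33, 31 and 32 reads with scramble ectosomes and 1627, 1910 and 1065 reads in controls. These were 11.63, 11.44 and 11.32 CPM with PKM2-knockdown ectosomes, 1.489, 1.632 and 1.534 CPM with scramble ectosomes and 86.67, 82.22 and 58.79 CPM in controls. No member differed more between groups. The transcript was 48.8-fold lower with scramble ectosomes than in controls (log2 -5.61 ± 0.17, adjusted p = 2.06e-09). With PKM2-knockdown ectosomes it was 7.38-fold higher than with scramble ectosomes (log2 2.88 ± 0.18, adjusted p = 3.6e-07) and 6.62-fold lower than in controls (log2 -2.73 ± 0.14, adjusted p = 1.56e-07).

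ANXA6, ANXA7 and ANXA11 changed less. ANXA6 (chr5:151100712-151157882, minus strand) encodes the large annexin with a duplicated core, which acts in endocytosis and cholesterol transport. It had 351.1, 374.5 and 360.9 CPM with PKM2-knockdown ectosomes, 264.2, 310.1 and 283.6 CPM with scramble ectosomes and 200.3, 176.7 and 328.4 CPM in controls. Control replicate 3 lay above every scramble library, and the other controls lay below them. Against controls ANXA6 was 1.54-fold higher with PKM2-knockdown ectosomes (log2 0.62 ± 0.19, adjusted p = 0.0167), a call lost without control replicate 1 (adjusted p = 0.0584) or 2 (adjusted p = 0.0527). The difference between PKM2-knockdown and scramble ectosomes did not pass (log2 0.34 ± 0.19, adjusted p = 0.138), nor did that between scramble ectosomes and controls (log2 0.28 ± 0.19, adjusted p = 0.203). Without control replicate 3 both passed, the first at log2 0.34 (adjusted p = 8.89e-05) and the second at log2 0.60 (adjusted p = 4.48e-07). The difference between the ectosomes also passed in a fit of their groups alone (adjusted p = 2.02e-05) and when scaled by library totals (log2 0.52, adjusted p = 0.0234).

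ANXA7 (chr10:73375101-73414076, minus strand) encodes synexin, an annexin with a long tail that promotes membrane fusion and binds sorcin and PDCD6. It had 55.85, 58.47 and 58.41 CPM with PKM2-knockdown ectosomes, 86.34, 88.25 and 82.91 CPM with scramble ectosomes and 51.62, 54.07 and 49.63 CPM in controls. It was 1.66-fold higher with scramble ectosomes than in controls (log2 0.73 ± 0.07, adjusted p = 4.27e-06). With PKM2-knockdown ectosomes it was 1.49-fold lower than with scramble ectosomes (log2 -0.58 ± 0.07, adjusted p = 3.67e-05), and the difference from controls did not pass (log2 0.15 ± 0.07, adjusted p = 0.0843). An antisense gene, AL512656.1, shares 105 exon bases with ANXA7, and reads of the 2 cannot be told apart, as the strand setting of the counts is not given.

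ANXA11 (chr10:80150889-80205572, minus strand) encodes the other long-tailed annexin that binds PDCD6, and it tethers RNA granules to lysosomes. It had 134.4, 142.3 and 147.2 CPM with PKM2-knockdown ectosomes, 145.1, 143.4 and 145.6 CPM with scramble ectosomes and 180.1, 162.4 and 209 CPM in controls. The ectosome groups overlapped and every control lay above them. Against controls ANXA11 was 1.30-fold lower with PKM2-knockdown ectosomes (log2 -0.38 ± 0.09, adjusted p = 0.00567) and 1.27-fold lower with scramble ectosomes (log2 -0.35 ± 0.09, adjusted p = 0.00702). The difference between the ectosomes was log2 -0.03 ± 0.09 (adjusted p = 0.766) and turned to 0.14 when libraries were scaled by their totals alone.

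**Figure D2:**
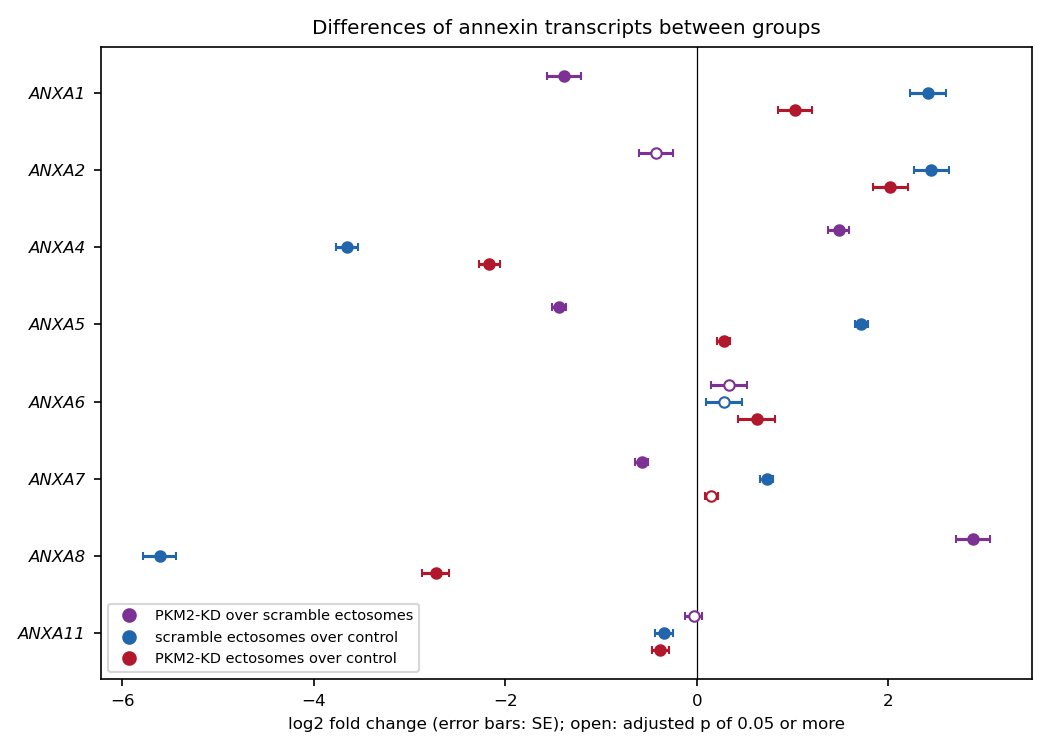
Log2 fold changes (horizontal axis) of the 8 annexins with SE as bars, for PKM2-knockdown over scramble ectosomes, scramble ectosomes over control and PKM2-knockdown ectosomes over control; open points did not pass an adjusted p of 0.05. ANXA8 spanned the widest range, -5.61 to 2.88, and no value of ANXA11 lay beyond -0.38.

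Counting over libraries, PKM2-knockdown and scramble groups did not overlap for 7 of 8 members (74.5% of all rows), scramble and control groups for 7 of 8 (71.3%) and PKM2-knockdown and control groups for 8 of 8 (60.5%). Scaling by library totals alone moved the median log2 difference of all rows to 0.20 for PKM2-knockdown against scramble ectosomes and to -0.21 for scramble ectosomes against controls, against 0.03 and -0.01 with TMM. The share of calls that were rises was then 61.9% in place of 50.9% for PKM2-knockdown against scramble ectosomes, and 40.2% in place of 51% for scramble ectosomes against controls. The direction of every member call was the same under that scaling.

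The order of the members within a group was read per kb of exon length, since longer transcripts collect more reads. Per kb of all annotated exons, ANXA5 averaged 68.1 CPM per kb with PKM2-knockdown ectosomes, 184.6 with scramble ectosomes and 56.1 in controls, the highest mean in each. With PKM2-knockdown ectosomes ANXA6 followed at 66.7 CPM per kb, within the spread of ANXA5, and then ANXA2, ANXA1, ANXA7, ANXA11, ANXA4 and ANXA8 at 40.9, 27.3, 20.1, 16.6, 5.94 and 2.31, each apart from the next. With scramble ectosomes ANXA1 came second at 71.4 CPM per kb, followed by ANXA2 at 55.0 and ANXA6 at 52.7, which overlapped, and the last were ANXA4 at 2.13 and ANXA8 at 0.313. In controls ANXA6 at 43.3 overlapped ANXA5, ANXA4 at 26.7 overlapped ANXA11 at 21.6, and the range of each of ANXA7, ANXA8, ANXA1 and ANXA2, at 18.1 down to 10.1 CPM per kb, overlapped that of its neighbour in the order. On this length ANXA4 stood above ANXA1, ANXA2, ANXA7 and ANXA11 by its mean in controls and below all of them in both ectosome groups. The order depends on the length used: per kb of the principal transcript, ANXA2 led with PKM2-knockdown ectosomes at 215 CPM per kb, ANXA5 led with scramble ectosomes at 318, and ANXA4 had the highest mean in controls at 105. With PKM2-knockdown ectosomes ANXA4, at 23.5 CPM per kb of that transcript, then overlapped ANXA7, also at 23.5, and lay above ANXA11 at 20.3.

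**Figure D3:**
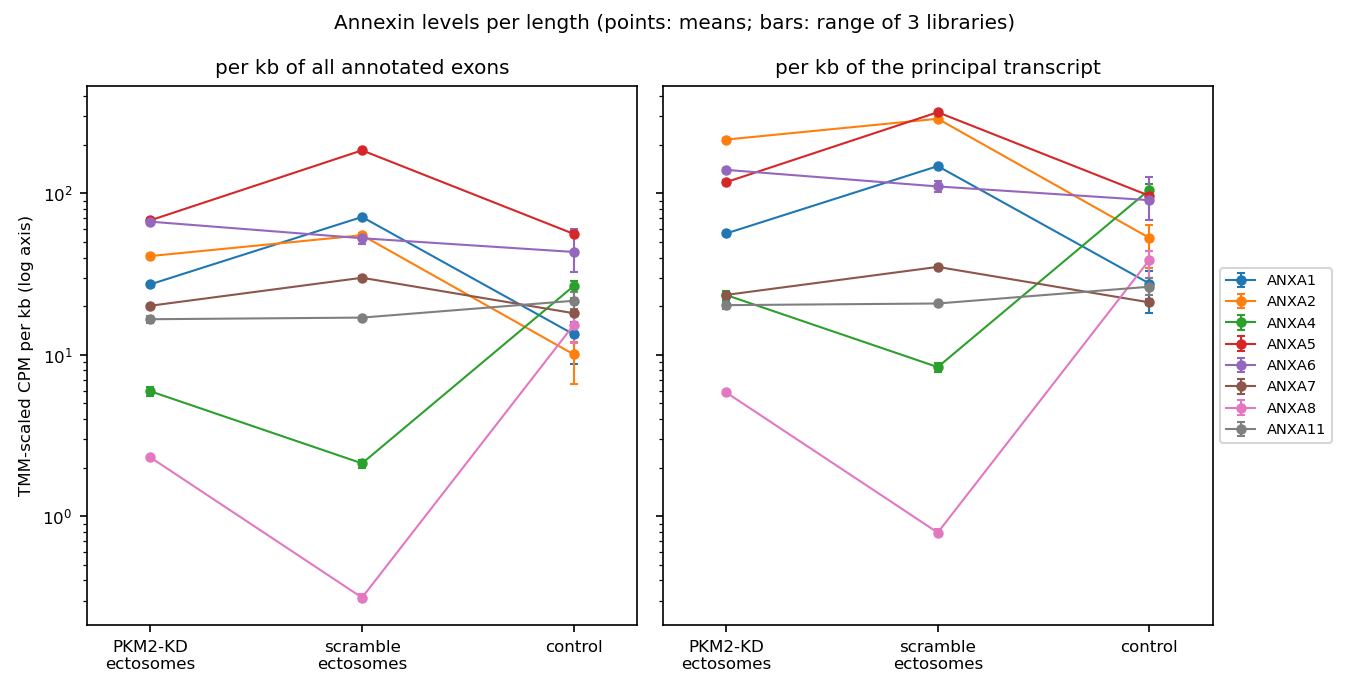
Mean TMM-scaled CPM per kb (log axis) of each annexin by group, per kb of all annotated exons (left) and of the principal transcript (right); bars are the range of 3 libraries and lines only join the points of 1 gene. ANXA4 and ANXA8 dip and ANXA1, ANXA2 and ANXA5 peak with scramble ectosomes. The length is constant for a gene, so that its ratios between groups are the same in both panels, while its level and the order between genes can differ.

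The row with the most similar profile to each member was found by the smallest root-mean-square difference of centred log2 profiles over the 9 libraries, among 11086 rows. ANXA1 lay closest to PCED1B and BTG1, at 0.11 and 0.12. ANXA2 lay closest to PARP12 and PKM, each at 0.09, and ANXA5 to SEC24D and ERP44, each at 0.07. ANXA4 lay closest to PHACTR3 and ACPP, each at 0.16, and ANXA8 to LINC02169 and PPP1R27, at 0.25 and 0.28. ANXA6 lay closest to TMC8 and PAK1, each at 0.11, ANXA7 to RPAP1 and MINDY1, each at 0.05, and ANXA11 to POLR1D and DLST, at 0.04 and 0.05. Within the family the closest pair was ANXA1 and ANXA5 at 0.43, ANXA4 and ANXA8 lay at 0.67, and the farthest pair was ANXA2 and ANXA8 at 3.17.

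ANXA8 and ANXA2 have near-identical copies that can exchange reads. ANXA8L1 (chr10:46375627-46391784, plus strand) is a protein-coding duplicate of ANXA8, and ANXA2P2 (chr9:33624274-33625293, plus strand) a processed pseudogene of ANXA2. Over 984 coding bases ANXA8 and ANXA8L1 differ at 5, which makes them 99.5% identical, and the changes are T16G, C276T, A528G, G530C and T939C, counted from the first coding base with the base of ANXA8 first. ANXA2 and ANXA2P2 differ at 16 of 1020 bases, or 98.4% identity. The stretch of each pair with the most differences, bases 499 to 558 of ANXA8 and 169 to 228 of ANXA2 (GENCODE 29 transcripts), shows how few bases tell the copies apart. Capitals mark the bases that differ.
ANXA8: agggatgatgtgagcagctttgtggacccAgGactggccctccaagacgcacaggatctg
ANXA8L1: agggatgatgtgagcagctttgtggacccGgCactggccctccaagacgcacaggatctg
ANXA2: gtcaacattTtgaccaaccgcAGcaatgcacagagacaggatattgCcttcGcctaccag
ANXA2P2: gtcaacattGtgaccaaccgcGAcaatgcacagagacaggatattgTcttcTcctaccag

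ANXA8L1 was given 6, 15 and 17 reads with PKM2-knockdown ectosomes, 3, 2 and 0 with scramble ectosomes and 116, 109 and 125 in controls. It was called in the same comparisons as ANXA8, at log2 2.87 ± 0.67 for PKM2-knockdown against scramble ectosomes (adjusted p = 0.00348), -6.09 ± 0.50 for scramble ectosomes against controls (adjusted p = 1.53e-06) and -3.22 ± 0.36 for PKM2-knockdown ectosomes against controls (adjusted p = 3.49e-05). It took 2.47, 5.79 and 7.30% of the reads of the pair with PKM2-knockdown ectosomes, 8.33, 6.06 and 0% with scramble ectosomes (95% Wilson upper limit of the last, 10.7%) and 6.66, 5.40 and 10.5% in controls. The interval of control replicate 3, 8.89 to 12.4%, lay above the upper limits of replicates 1 and 2, 7.92 and 6.47%, a spread beyond counting error. AC244230.1 and AC244230.2, on the same strand, share 342 and 121 exon bases with ANXA8L1. ANXA2P2 averaged 22.9 ± 0.471 CPM with PKM2-knockdown ectosomes, 28.2 ± 0.838 CPM with scramble ectosomes and 5.09 ± 1.40 CPM in controls (SD, n = 3 each). Its share of the ANXA2 pair was 5.80 to 6.15% with PKM2-knockdown ectosomes, 5.40 to 5.62% with scramble ectosomes and 4.92 to 5.78% in controls. How reads that match both copies were counted is not given, so that the rows of a pair are uncertain as separate genes, and the calls of ANXA8 and ANXA2 did not change when the copies were summed.

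**Figure D4:**
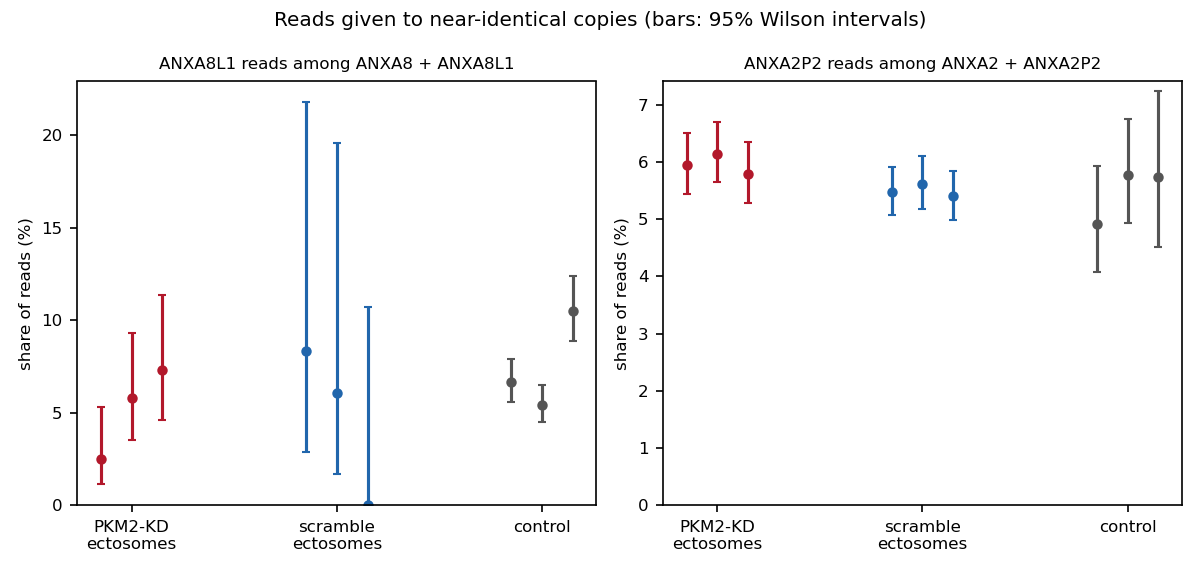
Share of reads (percent, vertical axes) given to ANXA8L1 among ANXA8 and ANXA8L1 (left) and to ANXA2P2 among ANXA2 and ANXA2P2 (right) in each library, with 95% Wilson intervals that cover counting error only. The ANXA2P2 share lay between 4.92 and 6.15% in all 9 libraries, while the ANXA8L1 share is wide with scramble ectosomes, where the pair had 32 to 36 reads. In controls the ANXA8L1 interval of replicate 3 lay above those of the other replicates.

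Of the other annexin genes, 4 of 5 were tested, with 2 higher and 1 lower for PKM2-knockdown against scramble ectosomes (31.4% and 30.3% of all rows). ANXA9 averaged 6.41 ± 0.780 CPM with PKM2-knockdown ectosomes, 11.8 ± 0.898 CPM with scramble ectosomes and 6.12 ± 0.550 CPM in controls (SD, n = 3 each). It was lower with PKM2-knockdown than with scramble ectosomes (log2 -0.88 ± 0.13, adjusted p = 0.000216) and higher with scramble ectosomes than in controls (log2 0.95 ± 0.14, adjusted p = 0.000101). ANXA10, a low transcript with 18, 14 and 10 reads with PKM2-knockdown ectosomes, 3, 0 and 1 with scramble ectosomes and 4, 11 and 0 in controls, passed for PKM2-knockdown against scramble ectosomes (log2 3.31 ± 0.85, adjusted p = 0.00612). Against controls ANXA10 passed with neither ectosome, save with PKM2-knockdown ectosomes without control replicate 2 (adjusted p = 0.0235) and with scramble ectosomes without control replicate 3 (adjusted p = 0.0126). ANXA3 averaged 1.67 ± 0.308 CPM with PKM2-knockdown ectosomes, 1.82 ± 0.249 CPM with scramble ectosomes and 2.17 ± 1.48 CPM in controls and passed in no comparison. Without control replicate 3 it was lower than in controls with PKM2-knockdown ectosomes (log2 -0.84, adjusted p = 0.00515) and with scramble ectosomes (log2 -0.73, adjusted p = 0.0095).

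Among protein partners of annexins 9 of 11 were tested. For PKM2-knockdown against scramble ectosomes 3 were higher and 2 lower (31.4% and 30.3% of all rows), for scramble ectosomes against controls 3 and 1 (34.6% and 33.2%), and for PKM2-knockdown ectosomes against controls 6 and 1 (27.0% and 26.7%). The share called between the ectosomes, 5 of 9, is thus near that of all rows. Without control replicate 3 the first pair of counts was 5 and 5, with DYSF tested as well, and the second was 4 and 3. In that fit 13617 and 13640 of 19053 rows passed in these comparisons. Every partner in the table was then called between the ectosomes, so that the nearness to the share of all rows depends on control replicate 3. S100A10, which holds annexin A2 at the membrane, averaged 202.9 ± 3.30 CPM with PKM2-knockdown ectosomes, 169 ± 16.2 CPM with scramble ectosomes and 48.5 ± 25.1 CPM in controls (SD, n = 3 each). It rose against controls with both (PKM2-knockdown log2 2.06 ± 0.33, adjusted p = 0.000375; scramble log2 1.80 ± 0.33, adjusted p = 0.000561). The S100A10 difference between the ectosomes did not pass (log2 0.26 ± 0.31, adjusted p = 0.493; 0.00137 without control replicate 3) and had the opposite sign to that of ANXA2.

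S100A11, the partner of annexin A1, averaged 266 ± 24.7 CPM with PKM2-knockdown ectosomes, 362 ± 14.4 CPM with scramble ectosomes and 103 ± 24.4 CPM in controls. It was lower with PKM2-knockdown than with scramble ectosomes (log2 -0.45 ± 0.15, adjusted p = 0.0237), a call lost with scaling by library totals (adjusted p = 0.159) and without scramble replicate 2 or 3 or PKM2-knockdown replicate 1 or 2 (adjusted p = 0.063 to 0.0854). S100A4, a partner of annexin A2, averaged 663 ± 36.3 CPM with PKM2-knockdown ectosomes, 213 ± 12.7 CPM with scramble ectosomes and 381 ± 18.0 CPM in controls. It was 3.11-fold higher with PKM2-knockdown than with scramble ectosomes (adjusted p = 1.05e-07) and 1.79-fold lower with scramble ectosomes than in controls (adjusted p = 4.91e-06). S100A6 was 1.53-fold higher with PKM2-knockdown than with scramble ectosomes (adjusted p = 0.000517), and FLNA, the actin cross-linker filamin A, was 1.92-fold lower (adjusted p = 4.56e-05).

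The binding partners of the long-tailed annexins changed little. PDCD6 averaged 239 ± 1.35 CPM with PKM2-knockdown ectosomes, 192 ± 9.14 CPM with scramble ectosomes and 204 ± 20.5 CPM in controls. It was higher with PKM2-knockdown than with scramble ectosomes (log2 0.32 ± 0.08, adjusted p = 0.00731). SRI, which encodes sorcin, averaged 22.9 ± 0.980 CPM with PKM2-knockdown ectosomes, 26.7 ± 2.16 CPM with scramble ectosomes and 27.6 ± 3.88 CPM in controls and passed in no comparison, nor did AHNAK, a scaffold that binds the complex of annexin A2, at 1868 ± 323 CPM with PKM2-knockdown ectosomes, 1497 ± 122 CPM with scramble ectosomes and 1906 ± 488 CPM in controls. SRI passed as lower with PKM2-knockdown than with scramble ectosomes without control replicate 3 (adjusted p = 0.0167), and AHNAK then passed as higher in that comparison (adjusted p = 0.00421) and as lower with scramble ectosomes than in controls (adjusted p = 7.13e-05). Against controls SRI was lower with PKM2-knockdown ectosomes without control replicate 1 (adjusted p = 0.0426) or 2 (adjusted p = 0.0484) and when scaled by library totals (adjusted p = 0.028). With that scaling SRI (adjusted p = 0.0455) and AHNAK (adjusted p = 0.027) were also lower with scramble ectosomes than in controls, and in a fit of the ectosome groups alone SRI (adjusted p = 0.0275) and AHNAK (adjusted p = 0.0026) passed between the ectosomes. DYSF, whose protein dysferlin binds annexins in muscle repair, had 0.148 CPM with PKM2-knockdown ectosomes, 0.648 CPM with scramble ectosomes and 0.231 CPM in controls and was too low to be tested.

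Of the receptors, FPR1 had 1, 3 and 6 reads in controls, FPR2 2, 4 and 1 and FPR3 1, 2 and 1. FPR3 had 1, 2 and 4 reads with scramble ectosomes. The size of a difference from these groups is thus limited by counting. FPR1 averaged 4.11 ± 0.348 CPM with PKM2-knockdown ectosomes, 1.63 ± 0.274 CPM with scramble ectosomes and 0.171 ± 0.144 CPM in controls (SD, n = 3 each). It was higher with PKM2-knockdown than with scramble ectosomes (log2 1.32 ± 0.26, adjusted p = 0.00118). FPR2, the main receptor of annexin A1, averaged 1.08 ± 0.169 CPM with PKM2-knockdown ectosomes, 0.957 ± 0.130 CPM with scramble ectosomes and 0.111 ± 0.0586 CPM in controls. It rose against controls with PKM2-knockdown ectosomes (log2 3.16 ± 0.39, adjusted p = 6.63e-05) and with scramble ectosomes (log2 2.98 ± 0.40, adjusted p = 6.08e-05), and the ectosomes did not differ beyond the spread (adjusted p = 0.586). FPR3 averaged 1.21 ± 0.245 CPM with PKM2-knockdown ectosomes, 0.114 ± 0.0737 CPM with scramble ectosomes and 0.0649 ± 0.0184 CPM in controls, and was higher with PKM2-knockdown than with scramble ectosomes (log2 3.34 ± 0.42, adjusted p = 5.64e-05). ANXA2R, named as a receptor of annexin A2, averaged 3.86 ± 0.830 CPM with PKM2-knockdown ectosomes, 5.09 ± 0.564 CPM with scramble ectosomes and 9.55 ± 1.52 CPM in controls. It fell against controls with PKM2-knockdown ectosomes (log2 -1.30 ± 0.19, adjusted p = 2e-04) and with scramble ectosomes (log2 -0.90 ± 0.18, adjusted p = 0.00128), and without control replicate 3 it was lower with PKM2-knockdown than with scramble ectosomes (adjusted p = 0.0325).

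Of the genes of plasminogen activation, 7 of 8 were tested, and 6 were higher and 1 lower against controls with PKM2-knockdown and likewise with scramble ectosomes, where 53.7% and 67.8% of all rows passed in either direction. Between the ectosomes 1 was higher and 1 lower, a smaller share than the 61.6% of all rows. Without control replicate 3 these counts were 3 and 2, where 13617 of 19053 rows passed. The smaller share thus depends on that library. PLAU, the plasminogen activator urokinase, averaged 35.4 ± 1.30 CPM with PKM2-knockdown ectosomes, 75.4 ± 3.56 CPM with scramble ectosomes and 21.8 ± 3.82 CPM in controls. It was 2.13-fold lower with PKM2-knockdown than with scramble ectosomes (adjusted p = 1.18e-05). PLAUR, its receptor, averaged 432 ± 9.16 CPM with PKM2-knockdown ectosomes, 339.9 ± 14.9 CPM with scramble ectosomes and 38.9 ± 18.5 CPM in controls, and the ectosomes differed only without control replicate 3 (adjusted p = 7.46e-06, against 0.302) or in a fit of the ectosome groups alone (adjusted p = 3.62e-06). The plasminogen receptor PLGRKT was 1.40-fold higher with PKM2-knockdown than with scramble ectosomes (adjusted p = 0.00203), and ENO1, a glycolytic enzyme that also binds plasminogen, did not pass (log2 0.19 ± 0.09, adjusted p = 0.0915; 0.00885 without control replicate 3).

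Annexin A1 was first known as an inhibitor of phospholipase A2, and 7 of 9 listed genes of that enzyme group were tested. For PKM2-knockdown against scramble ectosomes 5 were higher and 1 lower (31.4% and 30.3% of all rows), for scramble ectosomes against controls 3 and 4 (34.6% and 33.2%), and for PKM2-knockdown ectosomes against controls 3 and 0 (27.0% and 26.7%). PLA2G4A, the cytosolic enzyme that releases arachidonic acid, averaged 23.6 ± 1.29 CPM with PKM2-knockdown ectosomes, 12.4 ± 0.499 CPM with scramble ectosomes and 18.2 ± 2.57 CPM in controls. It was 1.91-fold higher with PKM2-knockdown than with scramble ectosomes (adjusted p = 4.97e-05), and PLA2G6 was 1.89-fold higher (adjusted p = 0.0023). PLA2G15, a lysosomal enzyme, was 1.34-fold higher (adjusted p = 0.0268), a call lost without any 1 of the scramble libraries or without PKM2-knockdown replicate 2 or 3 (adjusted p = 0.0599 to 0.0867).

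The proteins that move phosphatidylserine between membrane leaflets set where annexin A5 can bind, and 10 of 12 listed genes were tested. For PKM2-knockdown against scramble ectosomes 5 were higher and 4 lower, for scramble ectosomes against controls 5 and 4, and for PKM2-knockdown ectosomes against controls 4 and 1, where 61.6%, 67.8% and 53.7% of all rows passed in either direction. ANO6, the calcium-activated scramblase, averaged 223 ± 14.1 CPM with PKM2-knockdown ectosomes, 372 ± 11.8 CPM with scramble ectosomes and 223 ± 6.87 CPM in controls. It was 1.67-fold lower with PKM2-knockdown than with scramble ectosomes (log2 -0.74 ± 0.08, adjusted p = 1.19e-05), and XKR8, the scramblase cut by caspases, was 1.59-fold lower (adjusted p = 0.00045). ATP8B4, a flippase-type ATPase, averaged 181 ± 13.4 CPM with PKM2-knockdown ectosomes, 31.8 ± 2.45 CPM with scramble ectosomes and 190.4 ± 8.25 CPM in controls, a 5.70-fold difference between the ectosomes (adjusted p = 1.95e-08). ATP11B, another flippase, was 1.58-fold lower with PKM2-knockdown than with scramble ectosomes (adjusted p = 7.55e-05).

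Of the genes of calcium-dependent membrane repair, 9 of 11 were tested. For PKM2-knockdown against scramble ectosomes 3 were higher and 2 lower, for scramble ectosomes against controls 2 and 1, and for PKM2-knockdown ectosomes against controls 4 and 0. These shares lie below the 61.6%, 67.8% and 53.7% of all rows that passed in either direction. Without control replicate 3 the first pair was 4 and 4 and the second 5 and 3. In that fit 13617 and 13640 of 19053 rows passed in these comparisons, so that the lower shares of the list there depend on control replicate 3. CAPN2, a calcium-activated protease, averaged 162 ± 8.06 CPM with PKM2-knockdown ectosomes, 558 ± 4.08 CPM with scramble ectosomes and 164 ± 7.30 CPM in controls. It was 3.44-fold lower with PKM2-knockdown than with scramble ectosomes (log2 -1.78 ± 0.07, adjusted p = 3.8e-08). MYOF, a relative of dysferlin, averaged 63.3 ± 2.66 CPM with PKM2-knockdown ectosomes, 14.1 ± 0.269 CPM with scramble ectosomes and 26.9 ± 0.453 CPM in controls, and was 4.48-fold higher with PKM2-knockdown than with scramble ectosomes (adjusted p = 1.71e-08). CHMP4B, a subunit of the ESCRT machinery that seals membranes, was 1.59-fold lower (adjusted p = 5.7e-05).

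**Figure D5:**
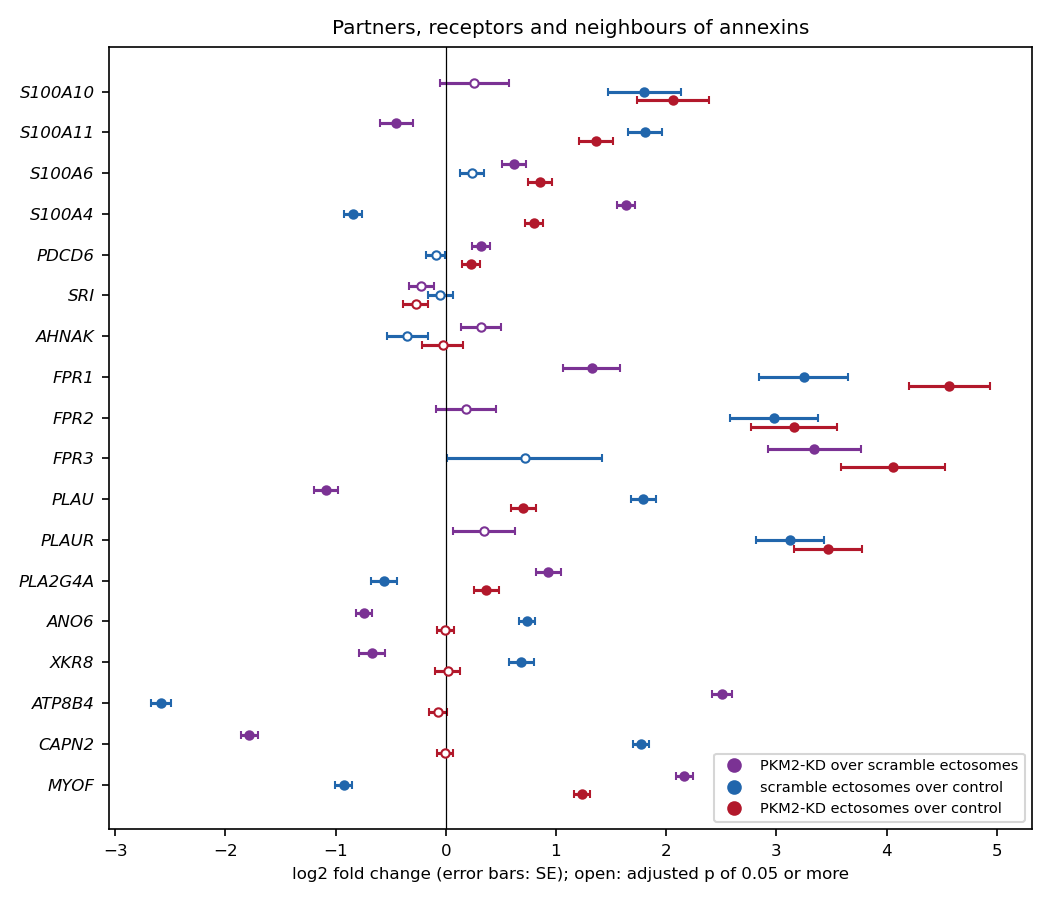
Log2 fold changes (horizontal axis) with SE as bars of named partners, receptors and functional neighbours of annexins in the 3 comparisons; open points did not pass an adjusted p of 0.05. FPR1 rose most against controls with PKM2-knockdown ectosomes, at 4.57, from 1, 3 and 6 reads in controls. ATP8B4 and CAPN2 lay on opposite sides in PKM2-knockdown over scramble ectosomes.

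Some transcripts listed as markers of other cell types were also higher in the PKM2-knockdown group, and whether THP-1 cells made them was not tested. Of 15 hepatocyte markers, which the source cells of the ectosomes could bring, 8 were in the table, with a summed level of 41.4 to 48 CPM with PKM2-knockdown ectosomes, 6.61 to 7.31 CPM with scramble ectosomes and 3.59 to 8.22 CPM in controls, and with TTR at 0 reads with PKM2-knockdown ectosomes and in controls. SERPINA1 carried most of this sum, at 37.4 ± 3.61 CPM with PKM2-knockdown ectosomes, 3.53 ± 0.494 CPM with scramble ectosomes and 2.02 ± 1.64 CPM in controls (SD, n = 3 each). APOA2 was also higher with PKM2-knockdown than with scramble ectosomes (adjusted p = 0.0113), while APOA1, AMBP and HP had lower means there. ALB had 10, 7 and 10 reads with PKM2-knockdown ectosomes, 2, 2 and 3 with scramble ectosomes and 2, 4 and 1 in controls. TF had 16, 17 and 16, then 4, 12 and 5, then 6, 27 and 18 reads in that order of groups. Of 4 hepatocyte markers tested, 2 were called higher and 0 lower with PKM2-knockdown than with scramble ectosomes (31.4% and 30.3% of all rows). Without control replicate 3, 4 of the 8 in the table were higher and 0 lower, where 6874 and 6743 of 19053 rows were. Summed fibroblast markers, all 5 with reads in every group, stood at 16.7 to 20.9 CPM with PKM2-knockdown ectosomes, 2.88 to 5.32 CPM with scramble ectosomes and 2.29 to 6.18 CPM in controls. DCN gave most of that sum with PKM2-knockdown ectosomes, at 11.3 ± 2.27 CPM; COL1A1 and PDGFRB were also higher than with scramble ectosomes, and COL1A2 and COL3A1, too low to be tested, had lower means. Summed epithelial markers, also 5 of 5, stood at 1.94 to 2.65 CPM with PKM2-knockdown ectosomes, 0.181 to 0.575 CPM with scramble ectosomes and 0.16 to 0.662 CPM in controls, with CDH1 at 1.82 ± 0.349 CPM with PKM2-knockdown ectosomes and EPCAM near 0 in all groups. Their part in the annexin differences was not tested.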

How the data were processed

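RNA of 9 THP-1 samples was sequenced, from 3 µg of Trizol-extracted RNA per sample with the NEBNext Ultra kit on an Illumina HiSeq instrument, per the labels' protocols. The values are raw counts by gene symbol in 1 table deposited by the authors, and the submitters' processing notes name HISAT2 2.0.5, featureCounts 1.5.0-p3 and GRCh38/hg38. Not given in the sources used here are the annotation release, the strand setting, any filter and the treatment of reads with several matches. The lowest row total was 4 counts, and 355 rows repeat an earlier symbol and were kept apart.

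Rows were filtered with filterByExpr by group (18437 kept, at least 99.8% of counts), scaled by TMM and fitted with edgeR 4.0.16 (R 4.3.3) by quasi-likelihood over all libraries, with no term besides group, 6 residual degrees of freedom and two-sided tests; the common biological coefficient of variation was 13.3%. SEs are approximate, the size of a log2 fold change over the square root of its F. The script was tested on simulated data. Coordinates and lengths are from GENCODE 29, promoters from RefSeq (GRCh38.p14), the latter matched by symbol. The length over all exons includes those of retained-intron transcripts. Profiles were compared on log2(CPM + 0.5) among rows with a mean of at least 5 CPM and a symbol that is not clone-based. Wilson intervals hold for counting error alone, since the reads carry no molecular identifiers.

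The members and lists were chosen with earlier results of these data known. Named genes are all members, every other annexin and ANXA2 pseudogene found, a set of known partners and receptors, and up to 3 genes per further list with the smallest p between the ectosomes and a mean of at least 5 CPM. Listed genes not in the table, among them ANXA13, TIMD4 and PLG, are not analysed here. Alternatives were library totals, no filter, DESeq2 1.42.0, the replicate number as a block, fits of 2 groups, summed copies and each library left out; the length of the principal transcript and list counts without control replicate 3 were added after seeing the data.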

Additional observations from a re-analysis of the deposited data

How the results depend on the processing

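Of the values of the 8 annexins under the alternatives, 332 kept their side of the threshold, 8 passed it newly and 2 no longer passed, and no call changed sign. The ones that crossed it were those of ANXA2 and ANXA6, and their ranges show the size of the limit: the adjusted p of ANXA2 for PKM2-knockdown against scramble ectosomes ran from 2.97e-07 to 0.261, and that of ANXA6 from 2.02e-05 to 0.31. For ANXA6 with scramble ectosomes against controls it ran from 4.48e-07 to 0.67. The log2 difference of ANXA8 for scramble ectosomes against controls stayed between -5.82 and -5.51. The labels do not say whether replicate numbers pair the libraries. Correlations of same-numbered deviations ran from -0.13 to 0.10, and with 3 libraries per group a weak pairing could be missed. With the replicate number as a block, 11035 rows passed for PKM2-knockdown against scramble ectosomes, 12179 for scramble ectosomes against controls and 9401 for PKM2-knockdown ectosomes against controls, against 11365, 12492 and 9904 without it, and the annexin counts remained 5, 7 and 7, while AHNAK passed under the block for PKM2-knockdown against scramble ectosomes (adjusted p = 0.0371) and for scramble ectosomes against controls (adjusted p = 0.0285). Scaling by library totals gave 11382, 12759 and 9976. ANXA8 with scramble ectosomes rests on 31 to 33 reads per library, so that its level there is limited by counting.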
